A study of Sus scrofa with 22 samples.

Results

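Sterol synthesis builds cholesterol from acetyl-CoA and fatty acid synthesis builds acyl chains from the same precursor, and 34 genes of these routes and their shared regulators were followed in RNA sequencing of pig foliate papillae and of organoids grown from them. The genes were taken by name from textbook pathway membership, with earlier results of these data known. Of the 34, 33 had an entry in the deposited count tables, which hold 27376 genes for 16 libraries and 29850 named genes for the other 6; IDI1 was not analysed here. The 33 fall into 17 genes of sterol synthesis and transport, 5 regulators of the sterol regulatory element-binding proteins (SREBPs) and 11 genes of fatty acid synthesis. All 33 had enough counts to be tested in each of 3 comparisons.

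In the sterol branch acetyl-CoA units are condensed to mevalonate, mevalonate is activated and joined into squalene, and squalene is cyclised to lanosterol and trimmed to cholesterol. In the fatty acid branch cytosolic acetyl-CoA is carboxylated, extended by fatty acid synthase and then elongated and desaturated, at the cost of NADPH. Both branches are transcribed under SREBPs, which the escort protein SCAP carries to the Golgi for cleavage and which INSIG proteins hold in the endoplasmic reticulum when sterols are plentiful; the product of SREBF2 acts mainly on sterol genes and that of SREBF1 mainly on fatty acid genes. In stratified epithelia, both branches feed membranes and the lipids of the barrier.

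Libraries fell into 6 groups. Passage 1 organoids (n = 5) were grown from the foliate papillae of 5 pigs, and papilla tissue of the same 5 pigs (n = 5) was sequenced beside them. Organoids in LPM without FGF10 (n = 3) stood beside organoids in LPM (n = 3), and organoids finished in CQ (n = 3) beside a second set in LPM (n = 3). LPM was the growth medium. In passage 1 organoids and the LPM cultures of the FGF10 experiment it held, per the labels' protocols, FGF10 at 100 ng/ml, insulin at 10 nM and forskolin at 1 µM. With these came EGF, FGF2, R-spondin 2, noggin, SHH, Wnt3a, CHIR99021, A-83-01, prostaglandin E2 and nicotinamide, in a base with insulin-free supplements. For the LPM of the CQ experiment the doses of FGF10, insulin and forskolin are not given in the sources used here. CQ cultures stayed in LPM until day 10 and were in CQ until day 16 or 17; the composition of CQ and the age of the LPM cultures beside them are not given in the sources used here, so medium and age cannot be told apart. The labels say that the FGF10 libraries are biological replicates, but no label says that the libraries of the FGF10 and CQ experiments came from different animals, and p-values there measure the spread between these libraries only. Genotype, strain and age of the pigs are not given in the sources used here.

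Library totals were 21.79–27.77 M counts in passage 1 organoids and 17.04–20.71 M in papillae, 19.64–23.45 M without FGF10 and 20.77–25.23 M in the matching LPM, and 14.67–16.00 M in CQ and 19.62–26.01 M in its LPM. Papillae were whole tissue: 8 markers of serous and mucous glands summed to 38.6–299 CPM in organoids and 42059–189087 CPM in papillae, 9 markers of suprabasal epithelium to 187–1383 and 21801.5–47173 CPM, and 10 of skeletal muscle to 0.573–0.952 and 319–9632 CPM. In the same order, 8 taste bud markers summed to 2997–6529 and 725–1257 CPM and 5 basal epithelial markers to 2800.1–4834 and 9074–12052.5 CPM. Both of these lists were split. By edgeR at an adjusted p under 0.05, KRT8, KRT18, KRT19 and SOX2 were higher in organoids, and TRPM5, PLCB2 and ENTPD2 were lower. KRT19 had 1184–3405 CPM in organoids and 157–330 CPM in papillae, and TRPM5 1.16–2.99 and 8.15–35.4 CPM. Of the basal markers ITGA6 and ITGB4 were higher in organoids, and KRT5, KRT15 and TP63 lower. Both kinds of sample, labelled as stem and mature taste cells, were thus mixtures. Papillae and organoids were extracted with different kits, and an effect of the kit cannot be told apart from one of the culture. In these bulk samples fewer cells of a type and less RNA per cell cannot be told apart either.

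Levels were expressed as counts per M (CPM), scaled by TMM within each comparison, and divided by exon length in kilobases to compare genes. Per kilobase, SCD and FASN led in passage 1 organoids with 298 ± 238 and 204 ± 160.0 CPM per kb, and ACAT2 had 95.3 ± 47.4 (SD, n = 5). SCD and FASN were far higher in the organoids of pigs 4 and 5 than in those of pigs 1 to 3. In rank, SCD was first of the 33 genes in 5 of 5 organoid libraries, and FASN was above ACAT2 in 4 of 5. In papillae the order was different: ACAT2 led with 92.9 ± 17.9, FDPS, LSS, SREBF2 and FASN followed between 51.2 and 57.4, and SCD reached 16.3 ± 2.78 CPM per kb. SCD was also first without FGF10, with 255 ± 6.44 against 237 ± 3.81 CPM per kb in LPM, but in CQ it came second, at 104 ± 7.90, behind ACAT2 at 177 ± 8.02. In the LPM set beside CQ, SCD stood at 579.6 ± 88.4 and ACAT2 at 81.7 ± 8.81 CPM per kb. At the other end, MVK had the lowest level per length of the 33 genes in 5 of the 6 groups, between 0.203 and 2.03 CPM per kb; in papillae that place went to STARD4 with 1.45 ± 0.213. Levels in different experiments were scaled separately and are not compared by a test.

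Passage 1 organoids were set against papillae to ask how the cultures compare with their tissue of origin. Most fatty acid genes were higher in organoids, led by the desaturase SCD (18.3-fold), the elongase ELOVL6 (9.70-fold) and the malic enzyme ME1 (4.20-fold). The sterol branch was split: 7 of the 11 genes from FDFT1 onwards, with the carrier STARD4 counted among them, were higher, and 0 of the 6 up to FDPS, of which PMVK was lower. That division of the route was chosen after the values were seen. By edgeR's quasi-likelihood test with Benjamini-Hochberg adjustment over 16311 genes, 67.5% of all genes were called at an adjusted p under 0.05, 32.4% higher and 35.1% lower, so calls are common in this comparison. Of the 11 fatty acid genes 7 rose and 0 fell, of the 17 sterol genes 7 rose and 1 fell, and of the 5 regulators 4 rose and 0 fell. At an unadjusted p under 0.05, 0 fatty acid genes and 0 regulators were lower either, and DESeq2 and limma-voom gave the same 2 counts of 0. The median log2 fold change was 0.74 in the fatty acid branch, 0.16 in the sterol branch and 1.02 in the regulators, beside −0.01 over all genes tested. With library size alone in place of TMM the median over all genes moved to 0.28 and 59.6% of the called genes were higher, against 48.0% with TMM, and the values below are relative to the TMM scale.

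**Figure D1:**
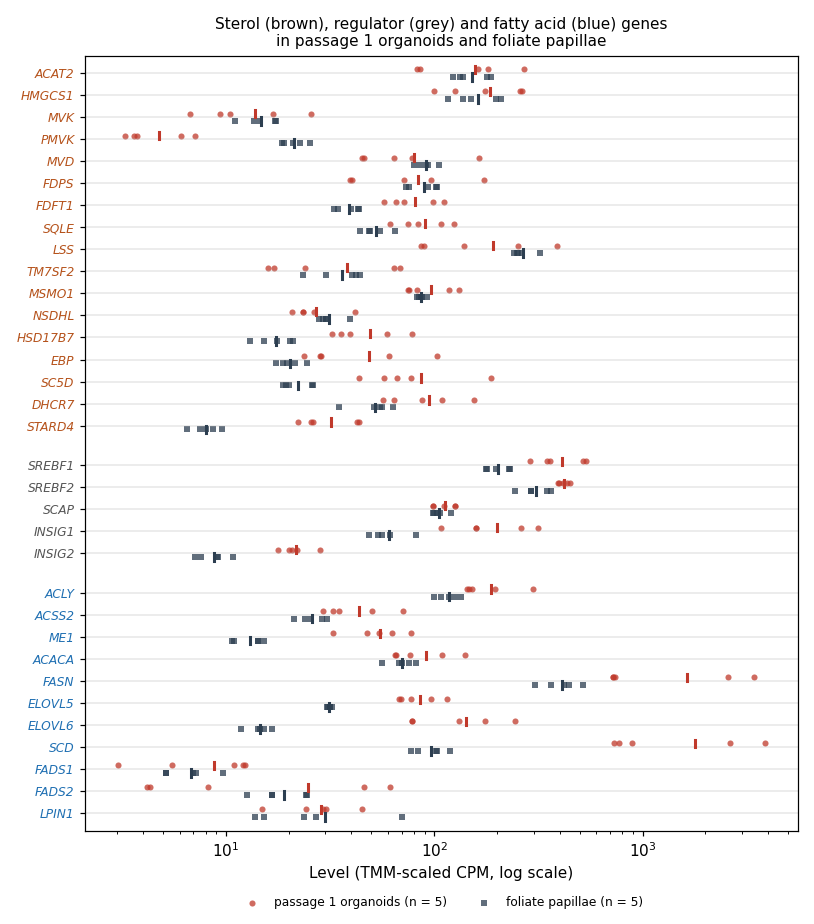
Levels of the 33 genes in TMM-scaled CPM (log axis) in the 5 passage 1 organoid libraries (red circles) and the 5 foliate papilla libraries (dark squares); vertical ticks are group means. The 5 organoid libraries of SCD sit between 725 and 3871 CPM, all above the papillae, whereas the 2 groups overlap for HMGCS1.

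Fatty acid genes showed the widest separation. SCD, which puts the first double bond into saturated acyl chains (chr14:111461560-111478033 in Sscrofa11.1), had 725, 767, 887, 2625 and 3871 CPM in the organoids of pigs 1 to 5 and 102, 119, 103, 77.2 and 83.5 CPM in their papillae. Every organoid library lay above every papilla, and the organoids of pigs 4 and 5 held the 2 highest values. The difference was 18.3-fold (log2 fold change 4.20, SE 0.52, adjusted p = 2.97e-05), and within single pigs it ran from 6.47- to 46.4-fold. FASN, the fatty acid synthase (chr12:922405-937560), had 734, 719, 724, 2579 and 3427 CPM in organoids and 421, 519.8, 445, 364 and 304 CPM in papillae. Its groups did not overlap either, and again the organoids of pigs 4 and 5 were far above the other 3; the difference was 3.98-fold (log2 fold change 1.99, SE 0.48, adjusted p = 0.00305).

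ELOVL6, which lengthens saturated and monounsaturated chains (chr8:112038670-112190079), had 78.5, 131, 78.4, 244 and 174 CPM in organoids and 14.6, 16.7, 15.3, 11.9 and 14.3 CPM in papillae. The groups were far apart and papillae varied little; ELOVL6 was 9.70-fold higher in organoids (adjusted p = 4.93e-06). ELOVL5, the elongase of polyunsaturated chains, had 69.03, 77.4, 67.7, 116 and 96.4 CPM in organoids and 32.4, 31.6, 31.7, 30.7 and 30.9 CPM in papillae, a 2.71-fold rise without overlap (adjusted p = 9.15e-06). ME1, the cytosolic malic enzyme that makes NADPH, had 32.8, 47.6, 54.6, 62.7 and 77.6 CPM in organoids and 14.3, 14.2, 15.3, 10.9 and 10.7 CPM in papillae. Its lowest organoid library was above its highest papilla, and the fold was 4.20 (adjusted p = 9.21e-06). The enzymes that supply cytosolic acetyl-CoA moved less: ACLY, the ATP citrate lyase, rose 1.596-fold to 187 ± 64.8 CPM in organoids against 117 ± 14.03 CPM in papillae (mean ± SD, n = 5 each, adjusted p = 0.0123), and ACSS2, the cytosolic acetyl-CoA synthetase, rose 1.67-fold (adjusted p = 0.0153).

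The carboxylase that commits acetyl-CoA to this route did not pass the test. ACACA (chr12:38580916-38875067) had 76.2, 64.8, 65.7, 141 and 109 CPM in organoids and 81.8, 75.6, 56.2, 67.5 and 70.2 CPM in papillae, which overlapped (log2 fold change 0.38, 95% interval −0.10 to 0.86, adjusted p = 0.145). It was called higher in organoids with library size alone (adjusted p = 0.0252). FADS2, a desaturase of polyunsaturated chains, had 8.25, 4.18, 4.31, 61.4 and 46.3 CPM in organoids and 16.7, 24.6, 24.3, 16.7 and 12.7 CPM in papillae. The organoids of pigs 1 to 3 lay below all papillae and those of pigs 4 and 5 above them, and the groups as wholes were not told apart (adjusted p = 0.638; 9.94% of its exon length overlaps another gene). FADS1, the other desaturase of that route, and LPIN1, a phosphatidate phosphatase of triglyceride synthesis, had adjusted p-values of 0.404 and 0.905.

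Several sterol genes were also separated, by smaller folds than SCD, ELOVL6 and ME1. STARD4, a cytosolic sterol carrier (chr2:116235821-116257143), had 26.3, 25.6, 22.2, 43.6 and 42.4 CPM in organoids and 8.70, 9.61, 6.49, 7.497 and 8.03 CPM in papillae, with no overlap and a 3.97-fold difference (log2 fold change 1.99, SE 0.22, adjusted p = 1.34e-05). HSD17B7, a keto-reductase of sterol demethylation (chr4:87720747-87743037), had 35.9, 32.2, 39.5, 77.9 and 59.5 CPM in organoids and 13.1, 17.6, 20.4, 20.9 and 15.2 CPM in papillae. It rose 2.81-fold without overlap (adjusted p = 3.00e-04). FDFT1, the squalene synthase that makes the first step particular to sterols (chr14:14976259-15010701), had 65.2, 71.8, 57.2, 111 and 98.6 CPM in organoids and 42.9, 39.95, 43.6, 33.2 and 34.7 CPM in papillae; every organoid library was above every papilla and the rise was 2.08-fold (adjusted p = 3.99e-04).

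SC5D, the lathosterol oxidase (chr9:48357115-48372391), had 66.6, 43.7, 57.7, 77.2 and 188 CPM in organoids and 26.3, 19.4, 20.2, 18.8 and 26.04 CPM in papillae, a 3.91-fold rise (adjusted p = 4.73e-04). Its level is uncertain, because 66.5% of its exon length overlaps an antisense gene and the counting ignored strand. SQLE, the squalene epoxidase (chr4:14669789-14700152), had 83.2, 74.5, 61.3, 124 and 108 CPM in organoids and 64.7, 54.8, 49.4, 44.3 and 48.9 CPM in papillae, with 1 organoid library below the highest papilla (1.72-fold, adjusted p = 0.00342). DHCR7, which closes the route by reducing dehydrocholesterol (chr2:2377352-2391846), had 64.4, 87.5, 57.1, 156 and 109 CPM in organoids and 51.4, 56.4, 63.2, 54.8 and 34.9 CPM in papillae. The groups overlapped in the organoids of pig 3, and the rise was 1.82-fold (adjusted p = 0.0133); with library quality weights in limma-voom the adjusted p was 0.0560. EBP, the sterol isomerase, rose 2.40-fold (adjusted p = 0.0111).

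The early sterol enzymes gave another picture. HMGCS1, which condenses acetoacetyl-CoA to HMG-CoA (chr16:27936225-27957261), had 125, 175, 100.3, 264 and 259 CPM in organoids and 198, 209, 149.7, 117 and 137 CPM in papillae, with wide overlap (log2 fold change 0.19, 95% interval −0.43 to 0.80, adjusted p = 0.566). PMVK, the phosphomevalonate kinase (chr4:94861500-94913743), was the 1 sterol gene that fell: it had 3.74, 6.10, 3.30, 7.12 and 3.64 CPM in organoids and 25.3, 21.1, 22.6, 19.1 and 18.5 CPM in papillae, 4.45-fold lower (adjusted p = 1.36e-05) and lower in 5 of 5 pigs. Of its exon length 8.01% overlaps another gene. The other 8 genes that missed the threshold, ACAT2, MVK, MVD, FDPS, LSS, TM7SF2, MSMO1 and NSDHL, had fitted log2 fold changes between −0.47 for LSS and 0.16 for MSMO1. Each had an interval of its own, from −0.21 to 0.52 for MSMO1 and −0.63 to 0.21 for NSDHL to −1.31 to 0.36 for LSS and −0.85 to 1.00 for TM7SF2.

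The organoids of the 5 pigs were unlike in both branches. Summed over the 17 sterol genes, organoids held 887, 1132, 801, 2209.9 and 1761 CPM in pigs 1 to 5, against 1262, 1333, 1149, 1027 and 1040.0 CPM in their papillae. For the 11 fatty acid genes the organoid sums were 1940.0, 2006, 2099, 6218 and 8125 CPM, and the papilla sums 926, 984, 853, 727 and 689.7 CPM. The organoids of pigs 4 and 5 were each among the 2 highest of the 5 organoid libraries for 29 of the 33 genes, and pig 4 was highest for 14 of the 17 sterol genes. How often these libraries ranked so high over all genes was not counted, so this ranking cannot be called particular to the 33 genes. Set against its own papilla, the median sterol gene stood at a log2 ratio of −0.46, −0.21, −0.36, 1.21 and 0.67 in pigs 1 to 5, and the median fatty acid gene at 0.59, 0.45, 0.56, 1.88 and 1.64. Sterol genes below the papilla numbered 10, 9 and 11 of 17 in pigs 1 to 3, and those above it 16 and 14 of 17 in pigs 4 and 5. Of the 11 fatty acid genes, 7, 7, 9, 11 and 11 were above the papilla in pigs 1 to 5. The shares of all genes above and below the papilla in each pig were not counted, so these counts have no background. Without the organoids of pig 4, 4 sterol genes were called lower in place of 1, namely PMVK, MVD, LSS and NSDHL, and 7 were still called higher; library quality weights gave 5 lower.

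**Figure D2:**
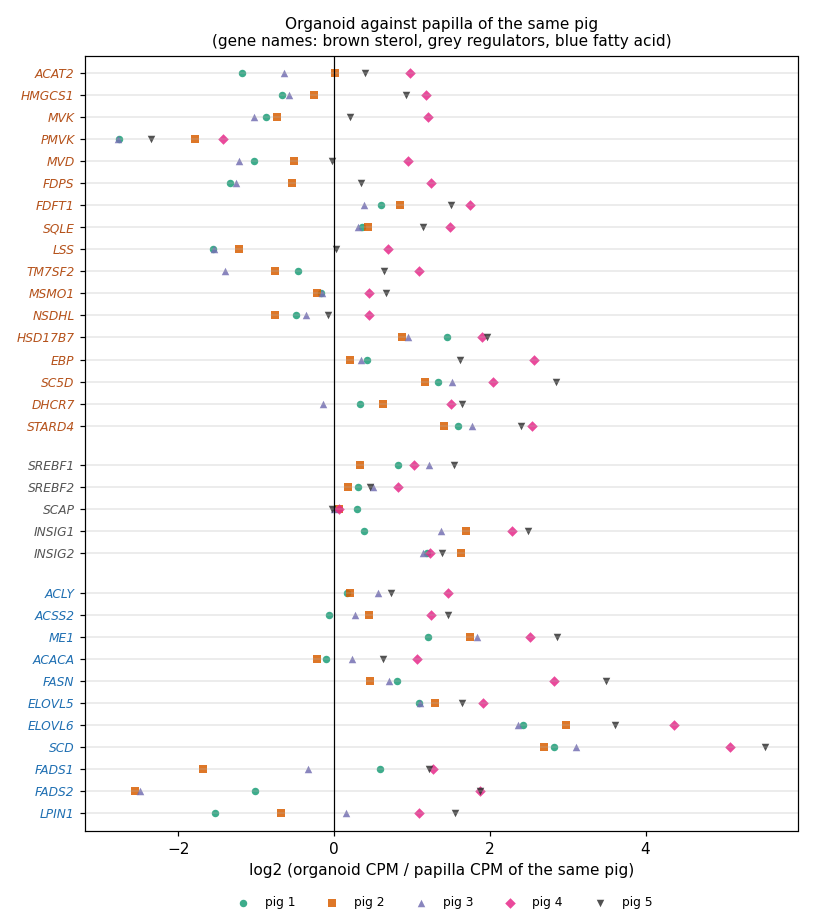
The log2 ratio of organoid to papilla CPM within each of the 5 pigs for the 33 genes, 1 symbol per pig; the vertical line marks equal levels. The symbols of pigs 4 and 5 lie to the right for most genes, while STARD4, ELOVL6 and SCD are to the right of the line in all 5 pigs.

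Of the regulators, SREBF1, SREBF2, INSIG1 and INSIG2 rose, each above the papilla in 5 of 5 pigs. SREBF1 (chr12:60733967-60750951) had 348, 287, 534, 361 and 518 CPM in organoids and 197, 229, 230.0, 177 and 179 CPM in papillae, 2.03-fold higher without overlap (log2 fold change 1.02, SE 0.19, adjusted p = 5.65e-04). SREBF2 (chr5:6719484-6784724) had 450.2, 394, 414, 432 and 399 CPM in organoids and 364, 348, 291, 245 and 291 CPM in papillae, also without overlap but only 1.36-fold apart (adjusted p = 0.0117). INSIG1, itself a target of SREBPs (chr18:2885494-2898758), had 107, 158, 158, 261 and 315 CPM in organoids and 82.1, 48.7, 61.3, 53.6 and 56.2 CPM in papillae. Each organoid library exceeded each papilla, by 3.31-fold on the fit (adjusted p = 2.10e-04). INSIG2 rose 2.50-fold to 21.8 ± 3.91 CPM in organoids, against 8.75 ± 1.45 CPM in papillae (SD, n = 5 each, adjusted p = 4.06e-05), and SCAP differed by a log2 fold change of 0.09 (95% interval −0.16 to 0.33, adjusted p = 0.513).

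Other lipid genes were followed in 7 lists. Over all genes tested, 32.4% were called higher in organoids and 35.1% lower. The shares of triglyceride genes (33.3% higher, 40% lower) were near these. So were the higher shares of cholesterol storage (35.7%) and SREBP processing genes (33.3%). Fatty acid oxidation had 1 of 14 tested genes higher in organoids (ANGPTL4, an inhibitor of lipoprotein lipase) and 8 lower (limma-voom called 0 higher and 8 lower), among them the acyl-CoA dehydrogenases ACADL, at 3.23 ± 2.21 CPM in organoids against 53.1 ± 2.61 CPM in papillae (SD, n = 5 each), and ACADM. Triglyceride and lipid droplet genes went both ways, 5 of 15 higher and 6 lower: the acyl-CoA synthetase ACSL4 was 5.26-fold higher and the acyltransferase DGAT2 37.8-fold lower in organoids (adjusted p = 6.76e-08 and 2.00e-06). Genes of epidermal ceramides and very long chains were 7 of 15 higher, with SPTLC1 and DEGS2 leading by p, and 5 lower, with the elongase ELOVL4 21.5-fold and the ceramide synthase CERS3 8.66-fold lower. Among genes of cholesterol storage and export 5 of 14 rose, including the lysosomal sterol carrier NPC2 (4.997-fold) and the lipoprotein receptor SCARB1 (2.94-fold), and 3 fell, including the sterol hydroxylases CYP27A1 and CH25H. The NADPH list had 3 of 7 higher (ME2 and IDH1 leading by p) and 2 lower, SREBP processing and related genes 3 of 9 higher and 2 lower, and isoprenoid side branches 3 of 7 higher, with DHDDS and GGPS1 leading by p.

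Fat tissue can hold much of the lipid synthesis in a tissue sample, so adipocyte markers are given beside these results. The 10 adipocyte markers summed to 11.0998–26.7 CPM in organoids and 50.9–99.4 CPM in papillae, and LEP, PCK1 and PLIN1 were at 0 in every organoid library. In papillae LEP, PCK1 and PLIN1 reached at most 0.203, 3.95 and 1.98 CPM. This list was split. By edgeR FABP4, CIDEA and LPL were called lower in organoids, and CIDEC and LIPE were not called. LIPE had 6.59–15.3 CPM in organoids and 5.15–13.6 CPM in papillae, and CIDEA 4.22–10.7 and 22.03–45.9 CPM. Fibroblast (87.5–208 and 1969.7–7173 CPM), endothelial (20.98–114 and 339.6–517 CPM), immune (24.8–91.3 and 395–552 CPM) and Schwann cell lists (14.9–31.3 and 359–514 CPM) likewise had lower sums in organoids than in papillae. The fibroblast, endothelial and immune sums of organoids were mostly THY1, KDR and CD68. THY1 and KDR were not called, and CD68 was called higher in organoids, at 19.3–85.2 CPM against 8.84–22.4 CPM in papillae. All other genes tested in the fibroblast, endothelial, immune and Schwann cell lists were called lower. The part of these cells, and of the glands and suprabasal cells above, in the differences of the synthesis genes was not tested.

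Cultures without FGF10, an epithelial growth factor, were set against cultures in complete LPM. Sterol and fatty acid genes stood nearly level with and without it, and 1 of the 33 passed the test: ME1 fell. The background was low, with 1.78% of 14262 genes called, 0.582% higher and 1.2% lower. By edgeR's quasi-likelihood test 0 of 17 sterol genes and 0 of 5 regulators were called. At an unadjusted p under 0.05 there were 4 sterol genes (SQLE, MVD, FDFT1 and HMGCS1) and 2 regulators (SREBF2 and INSIG1), all of them with lower means without FGF10, and 3 fatty acid genes, ME1 lower and SCD and ELOVL5 higher. Over all genes 11.8% had an unadjusted p under 0.05, 5.22% higher and 6.53% lower. DESeq2 and limma-voom also called 0 sterol genes and 0 regulators. Medians of the log2 fold changes were −0.04 for sterol genes, −0.04 for regulators and 0.01 for fatty acid genes, beside 0.00 over all genes.

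ME1 (chr1:82799878-82989895) had 33.9, 40.6 and 32.8 CPM without FGF10 and 50.05, 47.02 and 46.5 CPM in LPM. The groups did not overlap, and the fall was 1.33-fold (log2 fold change −0.42, SE 0.06, adjusted p = 2.70e-04). SCD had 1562, 1499.8 and 1492 CPM without FGF10 and 1434, 1419.5 and 1389.7 CPM in LPM; the libraries without FGF10 were all above, by a log2 fold change of 0.10 that missed the threshold (95% interval 0.03 to 0.18, adjusted p = 0.218). ELOVL5 likewise had 104, 105 and 107 CPM without FGF10 and 99.5, 96.4 and 99.1 CPM in LPM, without overlap and not called (log2 fold change 0.10, adjusted p = 0.320). FASN had 1542, 1495 and 1541 CPM without FGF10 and 1528, 1458 and 1487 CPM in LPM, and ACACA 119, 113 and 120.1 and 112, 106 and 118 CPM. Both overlapped between the media (adjusted p = 0.801 and 0.620).

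HMGCS1 had 151, 153 and 154 CPM without FGF10 and 158, 160.3 and 169.7 CPM in LPM, and SQLE 87.8, 90.9 and 87.4 and 96.6, 94.8 and 93.00 CPM. The libraries without FGF10 lay below those in LPM for both genes, but by only 1.07-fold in each case, and neither passed (adjusted p = 0.334 and 0.353). DHCR7 had 94.6, 84.9 and 91.7 and 88.7, 89.5 and 90.7 CPM in the same order, with overlap. Among the regulators SREBF1 had 744, 747 and 737 CPM without FGF10 and 756, 727 and 699 CPM in LPM, and SREBF2 595, 602 and 599.8 and 635, 633 and 629 CPM. INSIG1 had 110.3, 116 and 107 CPM without FGF10 and 132, 123 and 114 CPM in LPM (log2 fold change −0.15, adjusted p = 0.142). SREBF1 overlapped between the media and SREBF2 did not, by 1.06-fold (adjusted p = 0.368). For INSIG1, without the third LPM library the adjusted p was 0.0248, and with no filter on low counts 0.0356. Over the 32 genes that were not called, fitted log2 fold changes ran from −0.21 (FADS1) to 0.10 (SCD) and their 95% intervals from −0.46 to 0.32.

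The NADPH list held 3 of 7 genes that fell without FGF10, by edgeR and by each of the other tools, among them PGD and TALDO1 of the pentose phosphate pathway, with log2 fold changes of −0.21 (adjusted p = 0.00215) and −0.19 (adjusted p = 0.00771). The malic enzyme ME1 described above makes NADPH by another reaction. Of the other 6 lists, fatty acid oxidation had 1 of 14 lower (ANGPTL4, adjusted p = 0.0454, called by neither DESeq2 nor limma-voom) and ceramide genes 1 of 13 higher (ABCA12, a lipid transporter of the barrier, 1.63-fold, adjusted p = 0.0111), and cholesterol storage, isoprenoid, SREBP processing and triglyceride genes had 0 of 13, 7, 9 and 14 called by edgeR, DESeq2 or limma-voom. At an unadjusted p under 0.05 by edgeR those 4 lists held 0, 0, 0 and 2 genes. Over all genes tested 0.582% were called higher and 1.2% lower. Suprabasal markers summed to 236–311 CPM without FGF10 and 408.5–481 CPM in LPM. By edgeR, KRT4 and TGM1 were called lower without FGF10, and the other 4 suprabasal genes tested were not called. KRT4 made up most of the suprabasal sums, at 206–279 CPM without FGF10 and 370–444 CPM in LPM. In the same order, basal markers summed to 8174–8458 and 8697–8985 CPM and fibroblast markers to 99.5–112 and 130.04–136 CPM. THY1 made up nearly all of the fibroblast sums, at 98.4–111 CPM without FGF10 and 128–134 CPM in LPM. The part of these cells in the ME1 result was not tested.

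Cultures finished in CQ were set against cultures kept in LPM. All 5 regulators fell, fatty acid genes fell or did not pass the test, and the sterol branch moved in both directions at once, with DHCR7, ACAT2, FDPS and NSDHL higher and 8 others lower. Of the 6 sterol genes up to FDPS 2 rose and 1 fell, and of the 11 from FDFT1 onwards 2 rose and 7 fell. By edgeR's quasi-likelihood test 47.9% of 13827 genes were called, 23.1% higher and 24.8% lower. Of 17 sterol genes 4 rose and 8 fell, of 11 fatty acid genes 0 rose and 6 fell, and of 5 regulators 0 rose and 5 fell. The share of sterol genes that rose, 23.5%, was thus near that over all genes, while 47.1% of them fell. At an unadjusted p under 0.05, 1 fatty acid gene (ACLY) was higher and 0 regulators were; DESeq2 and limma-voom called 0 higher in both. Median log2 fold changes were −0.54 for sterol genes, −0.40 for fatty acid genes and −0.75 for regulators, beside −0.07 over all genes tested. CQ libraries had uneven low counts: over genes with means of 10 to 30 counts the ratio of variance to mean was 12.6 in CQ and 1.73 in LPM, and 14014–16005 genes were detected in CQ against 17489–17920 in LPM.

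**Figure D3:**
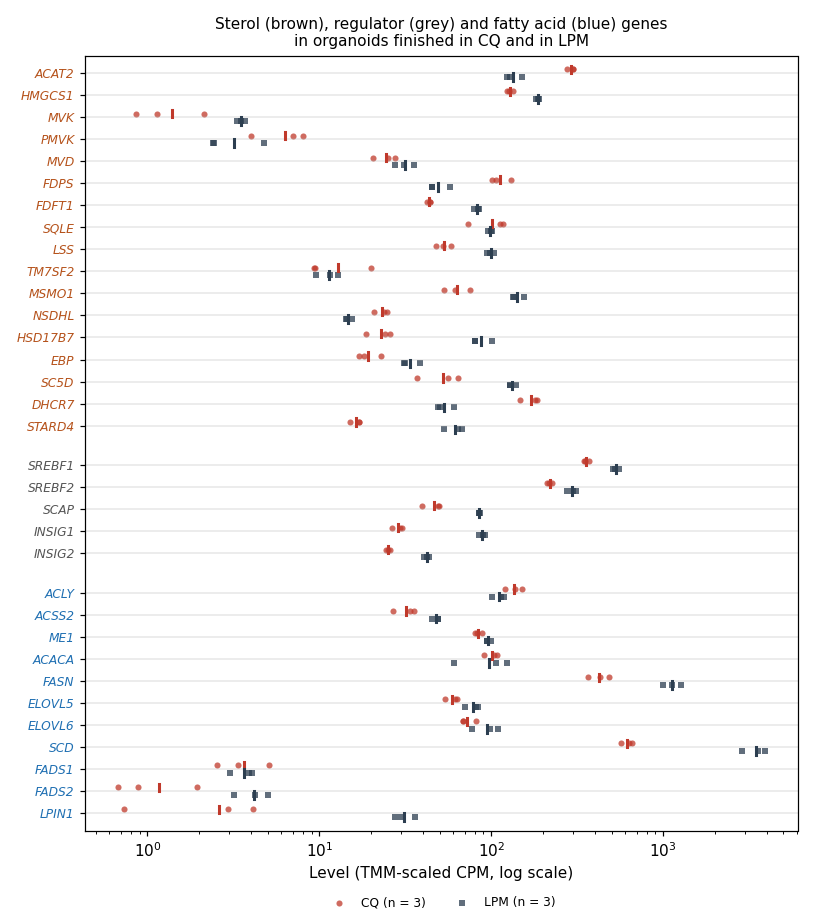
Levels of the 33 genes in TMM-scaled CPM (log axis) in the 3 CQ libraries (red circles) and the 3 LPM libraries beside them (dark squares); vertical ticks are group means. SCD, FASN, INSIG1 and STARD4 lie lower in CQ, DHCR7, ACAT2 and FDPS higher, and SQLE overlaps.

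SCD had 656, 631 and 565 CPM in CQ and 3912, 3574 and 2879 CPM in LPM. All CQ libraries lay far below LPM, by 5.60-fold (log2 fold change −2.49, SE 0.13, adjusted p = 1.39e-06). FASN had 485, 429 and 363 CPM in CQ and 1265, 1122 and 995 CPM in LPM, 2.65-fold lower without overlap (adjusted p = 4.45e-05). LPIN1 (chr3:124940557-125074137) had 2.96, 0.731 and 4.10 CPM in CQ and 29.7, 35.8 and 27.5 CPM in LPM. The fit gave an 11.95-fold fall (log2 fold change −3.58, SE 0.46, adjusted p = 2.66e-04), on 44, 12 and 65 counts per CQ library. ACSS2 had 35.6, 33.8 and 26.6 CPM in CQ and 49.3, 45.1 and 49.1 CPM in LPM, 1.49-fold lower (adjusted p = 0.00992).

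ELOVL5 and FADS2 fell less securely. ELOVL5 averaged 59.4 ± 5.23 CPM in CQ and 78.5 ± 6.82 CPM in LPM (SD, n = 3 each, adjusted p = 0.0247); it missed the threshold without LPM library 1 or 2 or without CQ library 3 (adjusted p = 0.0823, 0.0915 and 0.0658) and with library size alone (0.0593). FADS2, at 1.17 ± 0.685 CPM in CQ and 4.15 ± 0.926 CPM in LPM (adjusted p = 0.0288), missed it without any 1 of the 3 LPM libraries (0.146, 0.117 and 0.0588). ACACA had 103, 107 and 90.2 CPM in CQ and 123, 106 and 60.9 CPM in LPM; the third LPM library was the lowest of all 6 for this gene and the lowest of the 3 LPM libraries for 9 of the 11 fatty acid genes, and the adjusted p was 0.867. ACLY (0.30), ME1 (−0.20), ELOVL6 (−0.39) and FADS1 (−0.00), given as log2 fold changes, did not pass either. ELOVL6 was called lower without the third LPM library (adjusted p = 0.00840) or the third CQ library (0.0494), and by DESeq2 (0.0361).

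The sterol genes that rose included the enzymes that open and close the route. DHCR7 had 147, 180.2 and 186 CPM in CQ and 49.01, 49.99 and 60.6 CPM in LPM, a 3.21-fold rise without overlap (log2 fold change 1.68, SE 0.14, adjusted p = 1.96e-05). ACAT2, the cytosolic thiolase that opens the route (chr1:7600616-7612861), had 299, 297 and 276 CPM in CQ and 128, 123 and 150.2 CPM in LPM, 2.17-fold higher (adjusted p = 5.29e-05). Of the exon length of ACAT2 5.74% overlaps another gene. FDPS, the farnesyl diphosphate synthase (chr4:94500140-94514820), had 106, 131 and 102 CPM in CQ and 45.1, 45.05 and 57.4 CPM in LPM. It was 2.29-fold higher with no overlap (adjusted p = 2.16e-04). NSDHL, a dehydrogenase of sterol demethylation (chrX:123906130-123921935), had 23.8, 20.8 and 24.8 CPM in CQ and 14.4, 14.3 and 15.5 CPM in LPM, 1.57-fold higher (adjusted p = 0.00977); without the first or second LPM library its adjusted p was 0.0517 or 0.0593.

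STARD4 had 16.99, 16.9 and 15.1 CPM in CQ and 67.7, 64.2 and 52.9 CPM in LPM, 3.76-fold lower (log2 fold change −1.91, SE 0.15, adjusted p = 1.27e-05). HSD17B7 had 18.7, 25.9 and 24.1 CPM in CQ and 80.7, 80.4 and 101 CPM in LPM, 3.82-fold lower (adjusted p = 2.46e-05). Both carried the largest falls of the branch, and their groups were well apart. FDFT1 had 42.3, 43.9 and 43.9 CPM in CQ and 84.5, 79.5 and 83.7 CPM in LPM (1.90-fold, adjusted p = 1.36e-04). MSMO1, the methylsterol monooxygenase (chr8:43726834-43745784), had 61.9, 52.8 and 75.6 CPM in CQ and 136, 133 and 155 CPM in LPM (2.23-fold, adjusted p = 2.47e-04). HMGCS1 had 127, 133 and 123 CPM in CQ and 188, 182 and 187 CPM in LPM, 1.46-fold lower and without overlap (adjusted p = 0.00135).

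LSS, the lanosterol synthase, EBP and SC5D also fell, by 1.88-, 1.75- and 2.52-fold. The gene between FDFT1 and LSS did not: SQLE had 73.4, 112 and 117 CPM in CQ and 96.03, 99.9 and 101 CPM in LPM, where the first CQ library was lowest and the other 2 were above all LPM libraries (log2 fold change 0.03, 95% interval −0.35 to 0.41, adjusted p = 0.9005). MVK, PMVK, MVD and TM7SF2, at 1.38 ± 0.678, 6.33 ± 2.09, 24.4 ± 3.52 and 12.9 ± 6.13 CPM in CQ and 3.49 ± 0.179, 3.21 ± 1.36, 31.3 ± 3.95 and 11.3 ± 1.72 CPM in LPM (SD, n = 3 each), missed the threshold, with adjusted p-values between 0.0756 and 0.680. MVK was called lower and PMVK higher without the third CQ library (adjusted p = 0.0160 and 0.0437).

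The regulators fell without overlap between the media. Among the other members, 4 of 17 sterol genes and 3 of 11 fatty acid genes overlapped. Overlap was not counted over all genes tested in any comparison, so a lack of overlap has no background here. INSIG1 had 29.6, 26.3 and 30.4 CPM in CQ and 84.8, 89.1 and 91.5 CPM in LPM, 3.08-fold lower (log2 fold change −1.62, SE 0.12, adjusted p = 9.33e-06). SCAP (chr13:30253262-30320625) had 49.8, 39.7 and 49.2 CPM in CQ and 84.5, 86.1 and 85.1 CPM in LPM, 1.84-fold lower (adjusted p = 4.59e-04). SREBF1 had 345, 349 and 371 CPM in CQ and 523, 508 and 555 CPM in LPM, and SREBF2 226, 218 and 212 and 313, 297 and 275 CPM. These falls were small, 1.49-fold for SREBF1 (adjusted p = 7.03e-04) and 1.35-fold for SREBF2 (adjusted p = 0.00477). INSIG2 had 24.4, 25.6 and 24.99 CPM in CQ and 42.1, 40.5 and 43.5 CPM in LPM (1.68-fold, adjusted p = 0.00110); in these tables its entry also takes in a second locus on chromosome 7, so its level is uncertain.

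Lists around the synthesis genes are given beside 23.1% of all genes tested called higher in CQ and 24.8% lower. The higher shares of fatty acid oxidation (21.4%) and ceramide genes (23.1%) were near these. So was the lower share of cholesterol storage genes (25%). NADPH supply had 4 of 7 genes higher in CQ and 2 lower (IDH1 and ME3). Among the higher was the pentose phosphate enzyme TKT, at 366 ± 3.36 CPM in CQ and 139 ± 9.33 CPM in LPM (SD, n = 3 each), a 2.63-fold rise. Of 12 genes of cholesterol storage and export 2 rose and 3 fell: NPC2 was 7.73-fold and NPC1, its membrane partner in lysosomal sterol release, 3.82-fold higher, SCARB1 and the exporter ABCG1 lower. SREBP processing and related genes were 1 of 8 higher (PRKAA2, a kinase subunit) and 5 lower, including MBTPS1, the first protease to cut SREBPs, at 70.7 ± 4.38 CPM in CQ and 132 ± 4.28 CPM in LPM (adjusted p = 1.34e-04). Triglyceride genes were 6 of 14 higher (ABHD5 and AGPAT2 leading by p) and 6 lower (ACSL3 and ACSL5), fatty acid oxidation 3 of 14 higher (ACADM and ACADVL) and 5 lower (CPT1A and ANGPTL4), ceramide genes 3 of 13 higher (ELOVL1 and CERS2) and 2 lower (DEGS2 and SPTLC3), and isoprenoid branches 1 of 7 higher (DHDDS).

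Markers of other cells also differed between the media. The 8 fibroblast markers summed to 256–307 CPM in CQ and 7.54–9.84 CPM in LPM, nearly all of it THY1, at 255–307 CPM in CQ and 7.39–9.35 CPM in LPM (log2 fold change 5.02, adjusted p = 1.12e-07), while COL1A2, DCN and LUM were at 0 in both media. Endothelial markers summed to 0.940–1.52 CPM in CQ and 12.03–17.5 CPM in LPM, gland markers to 1.41–2.65 and 9.54–11.2 CPM, immune markers to 22.97–31.3 and 52.5–63.9 CPM, Schwann cell markers to 24.99–36.002 and 9.52–16.5 CPM and muscle markers to 2.46–3.896 and 0.561–0.588 CPM. Of the immune markers CD68 was called lower in CQ and CSF1R higher. MBP made up most of the Schwann cell sums, at 22.7–32.4 CPM in CQ and 7.25–14.1 CPM in LPM. TTN was the only muscle marker tested, and it was called higher in CQ. Suprabasal markers came to 26.4–32.1 CPM in CQ and 85.3–111 CPM in LPM, basal epithelial markers to 3356–3559 and 4267–4402 CPM, taste bud markers to 3928–4330.4 and 3108–3946 CPM and adipocyte markers to 7.01–9.87 and 7.80–10.4 CPM, with ADIPOQ, LEP and PCK1 at 0 in both media. Of the suprabasal markers only KRT4 was called lower in CQ, at 7.07–10.4 CPM against 62.4–75.6 CPM in LPM. Of the basal markers TP63, ITGA6, KRT15 and ITGB4 were called lower in CQ. KRT5, the most abundant of them, was not called, at 2091–2384 CPM in CQ and 1795–2124 CPM in LPM. Of the taste bud markers only KRT8 was called higher in CQ, at 2055–2162 CPM against 1212–1537 CPM in LPM. KRT18, SOX2 and PKD2L1 were called lower in CQ. The part of all these cells in the CQ differences was not tested.

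**Figure D4:**
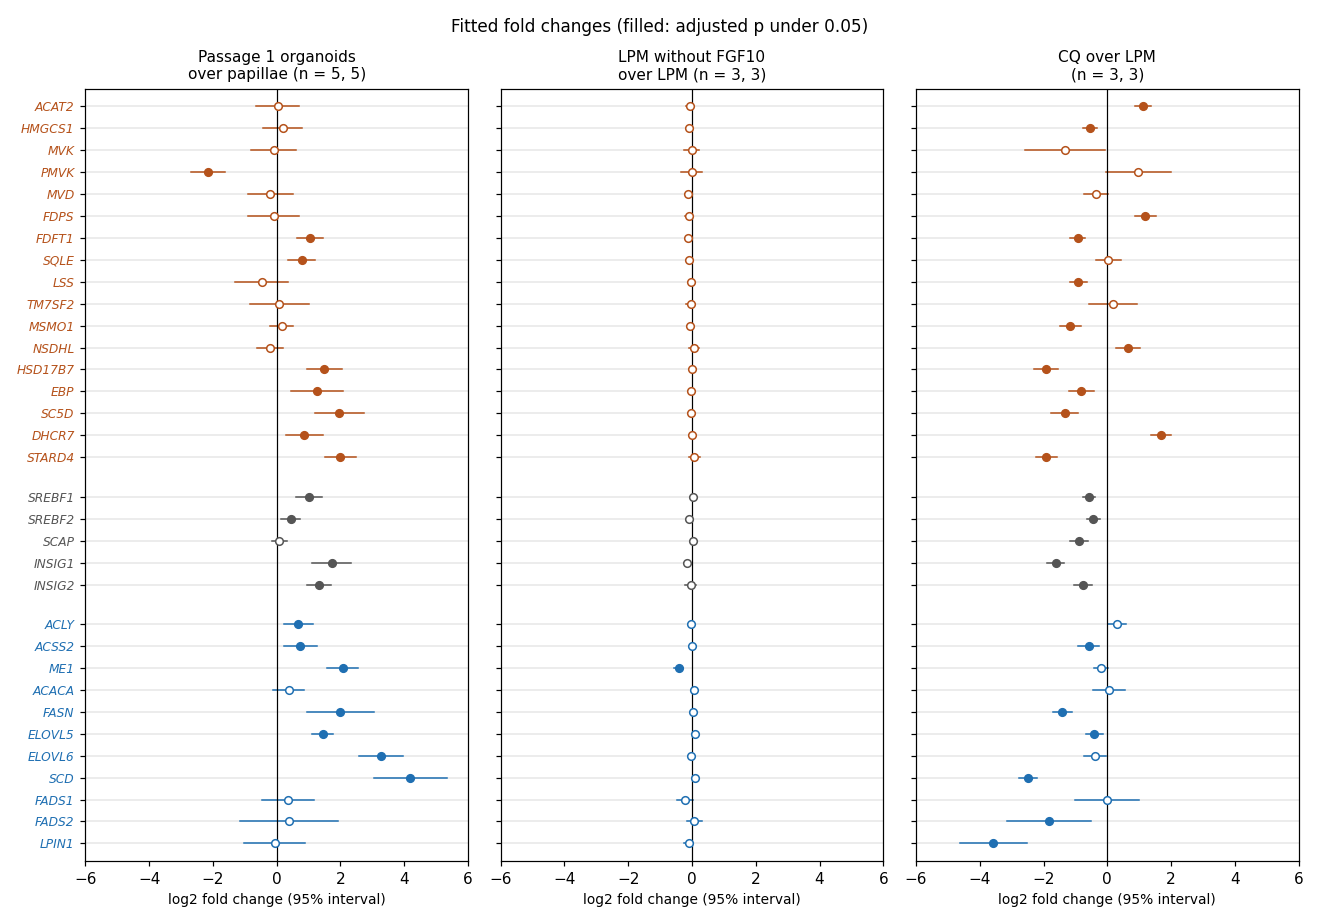
Fitted log2 fold changes with 95% intervals for the 33 genes in the 3 comparisons; filled symbols passed an adjusted p under 0.05, and brown, grey and blue mark sterol genes, regulators and fatty acid genes. Without FGF10 the points hug 0 except ME1, while CQ puts all 5 regulators below 0 and sterol genes on both sides.

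The branches differed in another way between the comparisons. The median log2 fold change of sterol genes minus that of fatty acid genes was −0.59 for passage 1 organoids over papillae, −0.05 without FGF10 and −0.14 in CQ over LPM; leaving out single libraries it ran from −0.66 to −0.54, from −0.06 to −0.01 and from −0.18 to −0.02. These differences have no test, since the genes of a branch share their libraries. Mean CPM summed over the branch showed the weight of SCD and FASN: fatty acid genes came to 4078 CPM in organoids and 836 CPM in papillae and to 1535 CPM in CQ and 5146 CPM in LPM, while sterol genes came to 1358 and 1162 CPM and to 1142 and 1223 CPM in the same order.

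Organoids over papillae and CQ over LPM share no library, and most of the 33 genes called higher in the first were called lower in the second. Of the 18 synthesis genes and regulators called higher in organoids, 13 (72.2%, or 68.4% of the 19 lower in CQ) were called lower in CQ. Over all genes tested in both, 1697 of 5201 called higher in organoids were lower in CQ (32.6%, or 50.1% of those lower in CQ). The 13 were SCD, FASN, ELOVL5, ACSS2, STARD4, HSD17B7, FDFT1, EBP, SC5D, SREBF1, SREBF2, INSIG1 and INSIG2. DHCR7 was the 1 gene called higher in both, and SQLE, ACLY, ME1 and ELOVL6, higher in organoids, were not called in CQ.

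**Figure D5:**
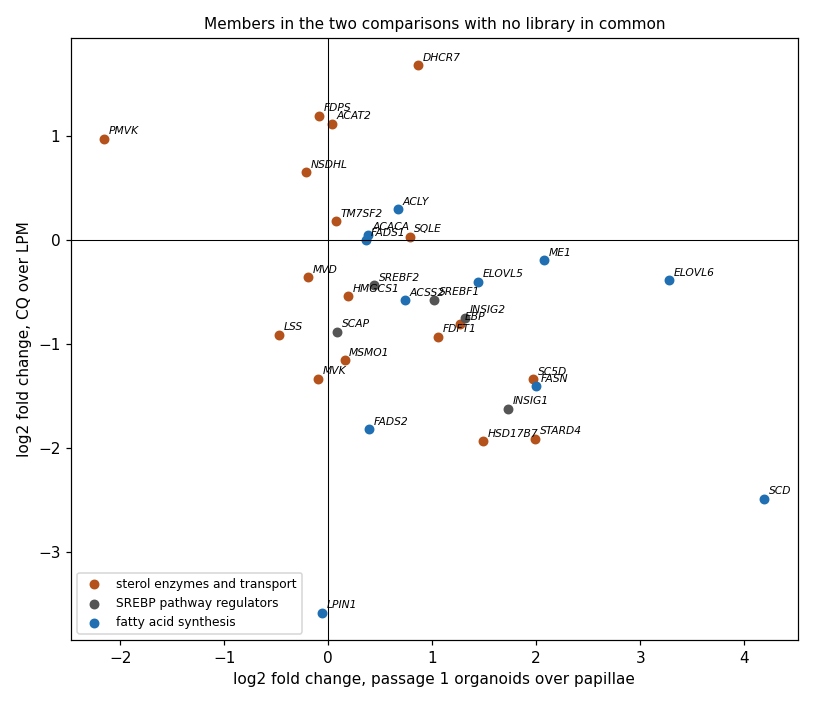
Log2 fold change of each of the 33 genes for passage 1 organoids over papillae (x axis) and CQ over LPM (y axis), coloured by branch. SCD is farthest to the lower right, at 4.20 and −2.49, and DHCR7 is highest, at 0.86 and 1.68.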

How the data were processed

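Read pairs per gene were deposited by the authors as raw counts for 22 libraries. STAR 2.7.10b and featureCounts are listed, beside FastQC 0.11.9, MultiQC 1.14 and DESeq2, in the submitters' processing notes. Per the file headers, the counting took no account of strand, credited a pair to each gene it overlapped and skipped pairs with several mapping places, so overlapping and antisense genes cannot be told apart. The 6 libraries of the CQ experiment held 1 entry with no gene name (0.326–0.477% of counts), which was dropped before scaling and testing. INSIG2 was matched by its coordinates in the other 16. Library totals were 14.67 to 27.77 M counts.

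Each comparison was fitted on its own 2 groups with edgeR 4.0.16 in R 4.3.3 (filterByExpr, TMM scaling and the quasi-likelihood test), with Benjamini-Hochberg adjustment across every gene in the fit and a call at an adjusted p under 0.05. Standard errors are the log2 fold change divided by the root of F. Alternatives used DESeq2 1.42.0 and limma-voom 3.58.1, other scalings and filters, a replicate block, and each library left out in turn. The script was tested on simulated counts. Papillae and organoids with the same number come from the same pig, so the numbers pair them; the correlation of their deviations was 0.034 to 0.090. Members and lists were chosen with earlier results of these data known. Values per library are given for up to 4 called members per branch and direction and for 9 fixed members. Of each related list up to 2 called genes per direction are named, those with the lowest p, and otherwise its most abundant tested gene.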

Additional observations from a re-analysis of the deposited data

Results flagged for a closer look

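In the groups of 5 libraries, 66 sets of values were searched for a library far from the other 4, and 6 were found; chance gives about 1 in 20 sets. In passage 1 organoids the library of pig 4 had 164.8 CPM of MVD, against 45.2 to 78.1 CPM in the other 4, and 41.5 CPM of NSDHL, against 20.8 to 26.6 CPM. The organoids of pig 5 had 188 CPM of SC5D, against 43.7 to 77.2 CPM, a gene whose exons overlap an antisense gene. Among papillae, pig 2 had 323 CPM of LSS, against 240.3 to 264 CPM in the others, and 39.6 CPM of NSDHL, against 28.1 to 30.4 CPM. The papilla of pig 1 had 70.1 CPM of LPIN1, against 13.9 to 27.2 CPM in the other 4.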

How the results depend on the processing

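No member changed direction while called under any alternative run, and calls changed under at least 1 of them for 7 of 33 members in organoids over papillae, 1 of 33 without FGF10 and 7 of 33 in CQ. Sterol genes lower in organoids numbered 1, 5 with library quality weights and 1 to 4 with single libraries left out. All genes called without FGF10 numbered 254, 429 with no filter on low counts and 125 to 294 with single libraries left out, 125 without LPM library 2 and 128 without the first library lacking FGF10. Regulators lower without FGF10 numbered 0, 1 (INSIG1) with no filter and 0 to 1 with single libraries left out. Fatty acid genes higher in CQ numbered 0 and 1 (ACLY) with library size alone or with quality weights. With single libraries left out, CQ calls over all genes ran from 4933 to 7112, sterol genes higher from 3 to 5, sterol genes lower from 8 to 9 and fatty acid genes lower from 4 to 6; organoid calls over all genes ran from 10443 to 11576. The causes of these changes were not tested. With the replicate block, 10679 genes were called in organoids over papillae, where numbers mark the pig, and no member's call changed. In the other 2 experiments samples share only a number (correlations −0.054 to 0.067 and −0.019 to 0.031); the replicate block called 234 and 6120 genes, and FADS2 in CQ had an adjusted p of 0.0733. Groups of 3 libraries and uneven low counts in CQ limit what can be said of members near 1 CPM, such as MVK, FADS2 and LPIN1.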
